A study of Mus musculus with 18 samples.

Results

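The genes described here encode myosin light chains (Myl1, Myl2, Myl3, Mylpf), the kinase of the regulatory light chain (Mylk2), myosin-binding proteins C (Mybpc1, Mybpc2) and tropomyosins (Tpm1, Tpm2, Tpm3). They were chosen by symbol, through the Ensembl identifiers of the count files, and are 10 of 46725 genes. Their 282 exon bins, the segments that remain when overlapping exons of a gene are cut at every annotated boundary, are part of 391858 bins in all. All 10 genes were tested in both muscles, and 266 of their bins in gastrocnemius and 247 in quadriceps had enough counts for a test.

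Each myosin head of the thick filament carries an essential and a regulatory light chain, and phosphorylation of the regulatory chain by Mylk2 raises force at a given calcium level. Myosin-binding protein C lies along the thick filament and restrains the heads, whereas tropomyosin runs along the thin filament and covers or frees the myosin sites on actin as calcium binds troponin. Fast fibers build these parts mainly from Myl1, Mylpf, Mybpc2 and Tpm1, slow fibers from Myl2, Myl3, Mybpc1 and Tpm3, and Tpm2 is used in both.

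The libraries came from 2 leg muscles, gastrocnemius and quadriceps, of 3 groups of 3 FVB mice aged 20 weeks. WT mice carried no transgene, HSA-LR mice carried a human skeletal actin gene with a long CTG repeat that is expressed in skeletal muscle, and the third group was HSA-LR mice given Pip6a-PMO. Pip6a-PMO is a peptide-conjugated CAG7 antisense oligomer directed against the repeat RNA, injected into a vein in 160 µL per mouse; the labels give no dose and call both other groups untreated, although their protocol names saline for mice without the oligomer. The transgene is driven by skeletal actin sequences, so the line models the repeat in skeletal muscle, and each group rests on 3 mice whose muscles were sampled as pairs.

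The 18 libraries held between 98916844 and 143135976 counts. The 10 genes took between 5.54% and 9.41% of the library sizes after scaling with TMM factors, which are not the raw counts. In both muscles of WT mouse 3, labelled male, 4 Y-linked genes summed to 1.14 and 1.43 CPM (counts scaled to a common library size, with TMM factors), while in WT mouse 2, labelled female, they summed to 153.3 and 188 CPM. Both values go against the sex labels, not against the group, and calls that change without either mouse are given beside the gene or bin. In all other mice of every group the sum lay between 134 and 188 CPM, so WT mouse 3 alone had almost no Y-linked counts. By these genes sex was unequal within the WT group, and its part in the differences from WT was not tested. The gastrocnemius library of Pip6a-PMO mouse 3 had a log2 ratio of 5′ to 3′ coverage of −1.58 against −1.33 to −1.20 in the other 17 libraries. Skeletal muscle markers were high in every library, with 6 of them summing to between 102300 and 166200 CPM.

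Per kilobase of annotated exon, the fast regulatory light chain Mylpf was the most abundant of the 10 in every group, followed by Myl1 and Tpm1. In WT gastrocnemius Mylpf averaged 15180 ± 1196 CPM per kb (SD, n = 3), Myl1 5689 ± 609, Tpm1 4208 ± 669, Mybpc2 2591 ± 217 and Tpm2 1752 ± 846. Mybpc1 followed at 544 ± 228 CPM per kb, Mylk2 at 458 ± 155, Myl2 at 409 ± 139, Myl3 at 217 ± 72.4 and Tpm3 at 124 ± 38.7. The ranges of neighbours in this order overlapped for Mybpc2 and Tpm2 and for every neighbouring pair from Mybpc1 down to Tpm3. In WT quadriceps Mylpf stood at 16430 ± 1722 CPM per kb, Myl1 at 5793 ± 234, Tpm1 at 3971 ± 495 and Mybpc2 at 2675 ± 132, with no overlap between neighbours down to Tpm2 at 1716 ± 706. The slow members ended that order, Myl2 at 34.7 ± 26.8 CPM per kb, Myl3 at 13.7 ± 6.46 and Tpm3 at 10.9 ± 5.91, and their ranges overlapped. In HSA-LR mice Tpm2 averaged above Mybpc2 in both muscles, at 2591 ± 312 against 2126 ± 200 CPM per kb in gastrocnemius and 2386 ± 918 against 2191 ± 158 in quadriceps, with overlapping ranges. When the largest bin of each gene stood for its length and count, between 4 and 8 of the 10 genes kept their rank in a group and the others moved by at most 3 places. The levels themselves depended on the length used, and 54 of 60 group means moved by more than their SD. By the largest bin, WT gastrocnemius averaged 25380 CPM per kb for Myl1, 21460 for Tpm1 and 237 for Mylk2.

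**Figure D1:**
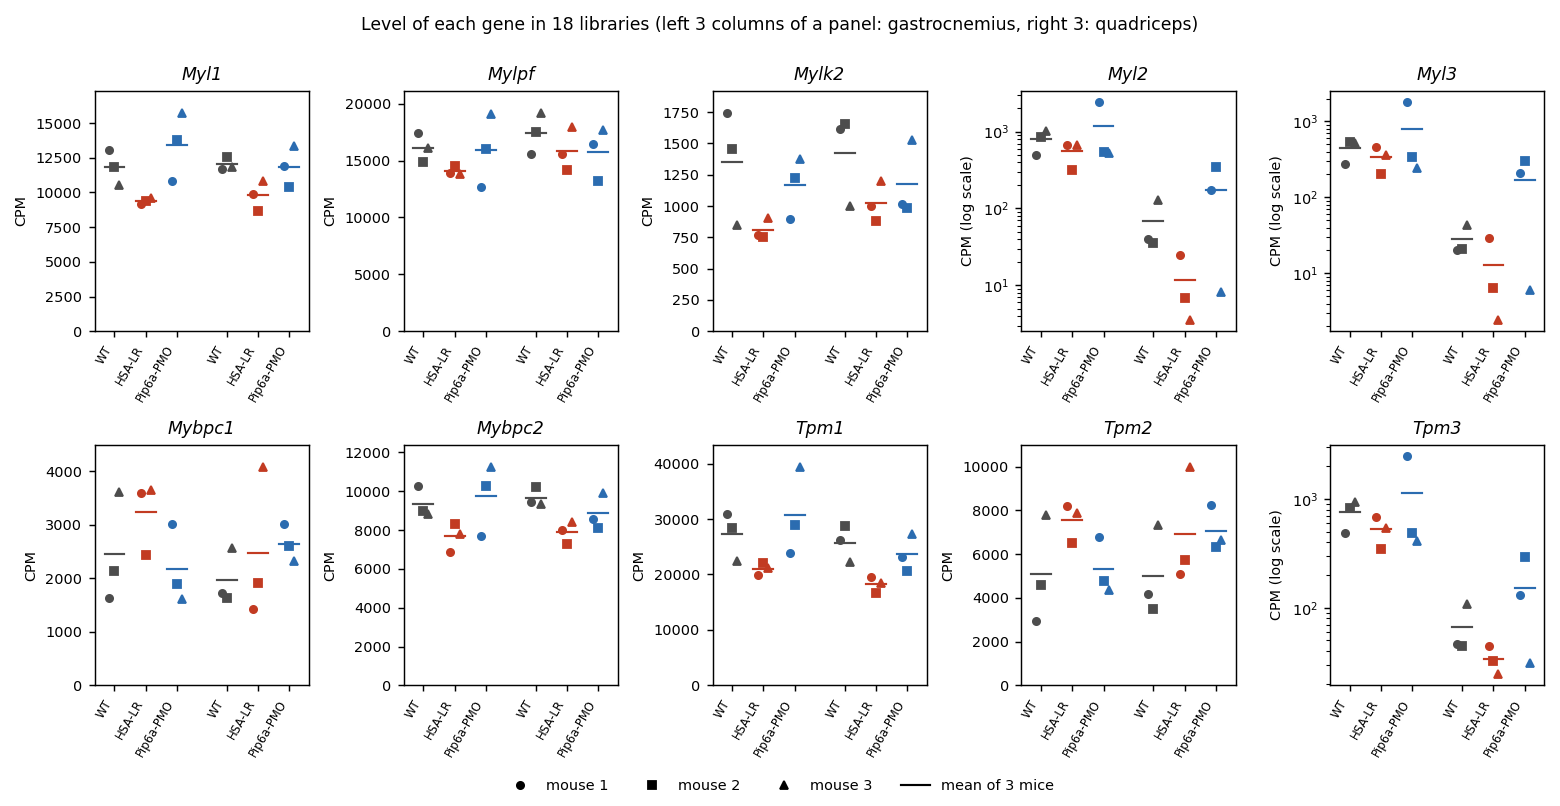
Level of each of the 10 genes in CPM (TMM-scaled counts) in 18 libraries, with 1 marker per mouse and a line at the mean of 3 mice; the left 3 columns of a panel are gastrocnemius and the right 3 quadriceps. The Myl2, Myl3 and Tpm3 panels have log axes because their values span 103-fold to 757-fold, while Mylpf, Mybpc2 and Myl1 span 1.51-fold to 1.82-fold.

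The first question was which of these genes differ between HSA-LR and WT muscle, and the second was where Pip6a-PMO-treated mice stand against untreated HSA-LR mice. Most of the 10 averaged below WT in HSA-LR muscle and above HSA-LR in treated muscle, but most of these differences did not pass an adjusted p under 0.1. In gastrocnemius 1 gene, Mylk2, fell in HSA-LR mice at an adjusted p under 0.1 in the quasi-likelihood test of edgeR (p adjusted after Benjamini and Hochberg), where 15.5% of all 15625 genes tested were called. In quadriceps 1 gene, Tpm1, fell, where 20.3% of all genes were called. The log2 fold changes of 8 of the 10 genes were below 0 in each muscle, with medians of −0.36 in gastrocnemius and −0.38 in quadriceps, and medians over all genes of −0.01 and 0.01. The CPM ranges of HSA-LR and WT mice did not overlap for 4 of the 10 genes in gastrocnemius and 5 in quadriceps, all lower in HSA-LR, against 36.2% and 33.2% of all genes in either direction and 16.5% and 16.1% in that direction. The summed macrophage markers also moved with the groups, at 34.7 to 46.5 CPM in WT and 49.4 to 53.1 CPM in HSA-LR gastrocnemius and at 21.7 to 36.2 and 53.9 to 68.1 CPM in quadriceps, and their part in these differences was not tested.

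Between treated and untreated HSA-LR mice, 1 gene, Myl1, rose in gastrocnemius, where 10% of all genes were called, and 2 genes, Myl2 and Tpm3, rose in quadriceps, where 13.8% were called (edgeR, adjusted p under 0.1). The median log2 fold changes over the 10 genes were 0.53 and 0.24, with 8 and 9 of them above 0. Ranges were apart for 2 genes in gastrocnemius and 1 in quadriceps, all higher after treatment, against 29.3% and 31.9% of all genes (13.2% and 15.4% in that direction). Both comparisons use the same untreated HSA-LR libraries, so a low or high HSA-LR mouse enters both. Pip6a-PMO and WT mice gave 0 calls among the 10 in either muscle by edgeR, 0 at an unadjusted p under 0.05 and 0 by DESeq2, where edgeR called 1.04% of all genes in gastrocnemius and 1.41% in quadriceps. No range was apart in that comparison, against 14.3% and 18.3% of all genes, and the smallest adjusted p of edgeR was 0.719 and 0.415. Treated quadriceps averaged above WT for the slow genes, by log2 fold changes of 2.62 for Myl3 (SE 1.21), 1.38 for Myl2 (SE 1.11) and 1.19 for Tpm3 (SE 0.671). The other genes lay between −0.27 for Mylk2 and 0.51 for Tpm2 in that muscle. With errors of this size, absent calls do not show equal levels.

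Myl1, the fast essential light chain (chr1:66924295-66945404, minus strand, GRCm38), measured 13050, 11830 and 10520 CPM in the gastrocnemius of WT mice 1 to 3, 9137, 9419 and 9616 CPM in HSA-LR mice, and 10820, 13770 and 15760 CPM in treated mice. In quadriceps it measured 11670, 12570 and 11810 CPM in WT mice, 9897, 8684 and 10810 CPM in HSA-LR mice, and 11890, 10380 and 13340 CPM in treated mice. Every HSA-LR value lay below every WT value of the same muscle, and in gastrocnemius also below every treated value. The log2 fold changes from WT to HSA-LR were −0.34 (SE 0.153, edgeR adjusted p = 0.202) and −0.29 (adjusted p = 0.164), and those from HSA-LR to treated were 0.53 (SE 0.153, adjusted p = 0.0826) and 0.28 (adjusted p = 0.192). The gastrocnemius call was lost when 1 mouse was left out, at edgeR adjusted p = 0.13 for WT mouse 2, 0.236, 0.217 and 0.17 for HSA-LR mice 1, 2 and 3, and 0.17 and 0.151 for treated mice 2 and 3. The quadriceps difference from WT passed without HSA-LR mouse 3 (edgeR adjusted p = 0.0969) and by DESeq2 (adjusted p = 0.086).

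Mylpf, the fast regulatory light chain (chr7:127208890-127214298, plus strand), was the steadiest of the 10, with 1.51-fold between its lowest and highest library. It measured 17400, 14860 and 16100 CPM in WT gastrocnemius, 13920, 14570 and 13790 CPM in HSA-LR and 12720, 15990 and 19130 CPM in treated mice. The quadriceps values were 15570, 17540 and 19230 CPM in WT, 15540, 14160 and 17940 CPM in HSA-LR and 16420, 13180 and 17670 CPM in treated mice. HSA-LR gastrocnemius lay just below WT without overlap, while the quadriceps groups overlapped. No comparison passed, with log2 fold changes from WT to HSA-LR of −0.20 (edgeR adjusted p = 0.461) and −0.13 (adjusted p = 0.627) and from HSA-LR to treated of 0.19 (adjusted p = 0.519) and −0.01 (adjusted p = 0.98).

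Mylk2, the skeletal muscle light chain kinase (chr2:152911352-152923068, plus strand), measured 1747, 1459 and 849.1 CPM in WT gastrocnemius, 766.3, 750.8 and 900.5 CPM in HSA-LR and 897.6, 1227 and 1375 CPM in treated mice. Its quadriceps values were 1616, 1654 and 999.5 CPM in WT, 1002, 878 and 1199 CPM in HSA-LR and 1013, 981.6 and 1529 CPM in treated mice. WT mouse 3 was low in both muscles and lay within the HSA-LR range, so the groups overlapped. From WT to HSA-LR the gene fell by 0.76 on the log2 scale in gastrocnemius (SE 0.25, edgeR adjusted p = 0.0909), and the quadriceps value was −0.47 (adjusted p = 0.227). From HSA-LR to treated the log2 fold changes were 0.54 (adjusted p = 0.241) and 0.20 (adjusted p = 0.617). Without WT mouse 3 the differences from WT were −1.01 in gastrocnemius (edgeR adjusted p = 0.0121) and −0.67 in quadriceps (adjusted p = 0.0865), and treated gastrocnemius passed against HSA-LR at adjusted p = 0.0898. The gastrocnemius call was lost without WT mouse 1 (log2 fold change −0.53, edgeR adjusted p = 0.254), WT mouse 2 (0.21), HSA-LR mouse 1, 2 or 3 (0.225, 0.226 and 0.152) or treated mouse 2 (0.115).

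The slow light chains varied far more between mice than the fast ones. Myl2, the slow and cardiac regulatory light chain (chr5:122100951-122113472, plus strand), measured 499.2, 861.2 and 1031 CPM in WT gastrocnemius, 679.1, 316.6 and 679.2 CPM in HSA-LR and 2458, 542 and 523 CPM in treated mice. In quadriceps it measured 40.2, 35.1 and 127.9 CPM in WT, 24.6, 6.92 and 3.51 CPM in HSA-LR and 174.8, 343.9 and 8.22 CPM in treated mice. Every HSA-LR quadriceps lay below every WT quadriceps, treated mice 1 and 2 lay above all WT values, and treated mouse 3 lay within the HSA-LR range. The log2 fold change from HSA-LR to treated quadriceps was 3.92 (SE 1.23, edgeR adjusted p = 0.0864), and that from WT to HSA-LR was −2.55 (adjusted p = 0.188). The treated call was lost without WT mouse 1 (edgeR adjusted p = 0.102), WT mouse 2 (0.104), HSA-LR mouse 1, 2 or 3 (0.128, 0.234 and 0.147) or treated mouse 1 or 2 (0.171 and 0.219). The log2 fold change was 5.08 without HSA-LR mouse 1 and 2.98 without treated mouse 2, and without treated mouse 3 the WT to HSA-LR difference passed at −2.53 (edgeR adjusted p = 0.0746).

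Myl3, the slow and cardiac essential light chain (chr9:110741861-110769798, plus strand), measured 273.4, 539 and 519.3 CPM in WT gastrocnemius, 458.7, 201 and 365.1 CPM in HSA-LR and 1823, 343.3 and 243.5 CPM in treated mice. The quadriceps values were 20, 20.8 and 43.3 CPM in WT, 29.5, 6.48 and 2.41 CPM in HSA-LR and 206.3, 303 and 6.07 CPM in treated mice. The same treated mice were high as for Myl2, mouse 1 in gastrocnemius and mice 1 and 2 in quadriceps. The log2 fold change from HSA-LR to treated quadriceps was 3.76 (edgeR adjusted p = 0.108), and without treated mouse 3 it was 4.30 (adjusted p = 0.0452). With all mice it passed by DESeq2 (adjusted p = 0.0254) and, by edgeR, with each gene's largest bin (adjusted p = 0.0878) or no filter on low counts (adjusted p = 0.0959). From WT to HSA-LR the quadriceps value of Myl3 was −1.14 (edgeR adjusted p = 0.585), and in gastrocnemius the log2 fold changes were −0.52 for Myl2, −0.39 for Myl3 and −0.54 for Tpm3 (adjusted p = 0.641, 0.777 and 0.653). In gastrocnemius, treated mouse 1 set the direction of all 3 slow genes against HSA-LR: with it the log2 fold changes were 1.08 for Myl2, 1.24 for Myl3 and 1.12 for Tpm3 (adjusted p = 0.321, 0.323 and 0.332), and without it they were −0.06, −0.21 and −0.22 (edgeR adjusted p = 0.939, 0.778 and 0.732).

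The slow genes moved together across libraries, and with the other genes of slow fibers. Over the 18 libraries, which include pairs of muscles of 1 mouse, log2 CPM of Myl2 correlated with Myl3 at r = 0.987 and with Tpm3 at r = 0.971. Among 6651 other genes the closest were Myh6 (0.994) and Tnnt1 (0.992) for Myl2, Myh6 (0.98) and Tnnt1 (0.979) for Myl3, and Tnni1 (0.99) and Tnnc1 (0.986) for Tpm3. Tnnt1, Tnni1 and Tnnc1 encode the slow troponins and Myh6 a myosin heavy chain best known from heart. The 9 genes of a slow fiber list summed to 2015, 3476 and 5116 CPM in WT gastrocnemius and to 10840 CPM in treated mouse 1, and in quadriceps to 240.4 to 662.3 CPM in WT, 226.4 to 289.2 CPM in HSA-LR and 913.1, 1969 and 167.8 CPM in treated mice. None of these 9 was called between HSA-LR and WT in either muscle, and 4 rose in treated quadriceps (median log2 fold change 1.65 over the list): Tnnt1 by 4.17, Tnnc1 by 4.32, Myh7 by 4.94 and Atp2a2 by 1.60, with edgeR adjusted p between 0.0632 and 0.094. Of all genes, 15.5% and 20.3% were called between HSA-LR and WT, and 13.8% between treated and HSA-LR quadriceps. Of 5 heart genes, Nppa, Nppb and Ryr2 were under 1 CPM in every library, while Myh6 and Tnnt2 were measured. The sum of the 5 varied with the slow genes, from 34 to 101.7 CPM in WT and HSA-LR gastrocnemius and 254.8 CPM in treated mouse 1, and from 3.29 to 15.2 CPM in WT and HSA-LR quadriceps and 19.4, 38.7 and 4.15 CPM in treated mice, and 1 of the 3 tested rose in treated quadriceps. In whole muscle, fewer slow fibers and less slow RNA in each fiber cannot be told apart, and whether a different share of slow muscle entered the samples was not tested.

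**Figure D2:**
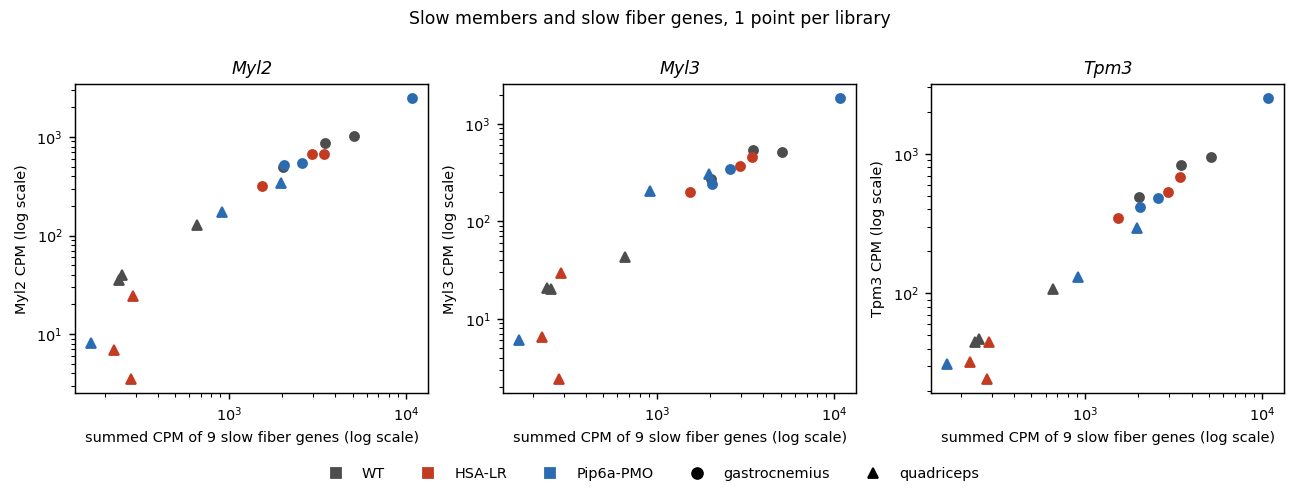
Level of Myl2, Myl3 and Tpm3 (CPM, log axis) against the summed CPM of 9 slow fiber genes (log axis), with 1 point per library, circles for gastrocnemius, triangles for quadriceps and colors for the groups. Points of all 3 groups fall along 1 band in each panel, from quadriceps libraries at the low end to treated gastrocnemius mouse 1, at a sum of 10840 CPM, at the high end.

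The HSA-LR means of the myosin-binding proteins stood on opposite sides of WT, with no call for either. Mybpc1, named for slow muscle but present in fast fibers too (chr10:88518279-88605152, minus strand), measured 1632, 2142 and 3617 CPM in WT gastrocnemius, 3599, 2436 and 3660 CPM in HSA-LR and 3015, 1899 and 1606 CPM in treated mice. The quadriceps gave 1732, 1635 and 2564 CPM in WT, 1421, 1918 and 4089 CPM in HSA-LR and 3013, 2604 and 2321 CPM in treated mice. The groups overlapped in every comparison, and no log2 fold change passed, with 0.38 and 0.33 from WT to HSA-LR (edgeR adjusted p = 0.514 and 0.611) and −0.56 and 0.10 from HSA-LR to treated (adjusted p = 0.341 and 0.887). The quadriceps value against WT was −0.25 without HSA-LR mouse 3 (edgeR adjusted p = 0.535).

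Mybpc2, the fast form (chr7:44501699-44524656, minus strand), measured 10260, 8989 and 8825 CPM in WT gastrocnemius, 6895, 8315 and 7816 CPM in HSA-LR and 7675, 10260 and 11270 CPM in treated mice. The quadriceps values were 9437, 10210 and 9338 CPM in WT, 8025, 7293 and 8421 CPM in HSA-LR and 8566, 8100 and 9918 CPM in treated mice. HSA-LR lay below WT without overlap in both muscles. The log2 fold changes were −0.30 (edgeR adjusted p = 0.283) and −0.29 (adjusted p = 0.123), and those to treated were 0.35 (adjusted p = 0.232) and 0.17 (adjusted p = 0.36). The quadriceps difference passed by DESeq2 (adjusted p = 0.0435) and, by edgeR, without HSA-LR mouse 3 (adjusted p = 0.0973) or treated mouse 3 (adjusted p = 0.0805), and the treated gastrocnemius passed against HSA-LR without treated mouse 1 (0.49, adjusted p = 0.0763).

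Tpm1, the fast alpha tropomyosin (chr9:67022590-67049406, minus strand), measured 30960, 28410 and 22500 CPM in WT gastrocnemius, 19920, 22100 and 21080 CPM in HSA-LR and 23910, 28850 and 39450 CPM in treated mice. In quadriceps it measured 26250, 28680 and 22320 CPM in WT, 19570, 16640 and 18440 CPM in HSA-LR and 23070, 20650 and 27280 CPM in treated mice. It was the only member of the 10 whose HSA-LR values lay below both WT and treated values in each muscle. From WT to HSA-LR it fell by 0.50 on the log2 scale in quadriceps (SE 0.142, edgeR adjusted p = 0.0489), and the gastrocnemius value was −0.39 (adjusted p = 0.261). From HSA-LR to treated the log2 fold changes were 0.55 (edgeR adjusted p = 0.139, DESeq2 0.0335) and 0.38 (edgeR adjusted p = 0.134, DESeq2 0.0502). The quadriceps call was lost without WT mouse 1 (edgeR adjusted p = 0.116), WT mouse 2 (0.137) or HSA-LR mouse 2 (0.134), and the treated gastrocnemius passed without treated mouse 1 (0.71, adjusted p = 0.071).

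Tpm2, the beta tropomyosin (chr4:43514711-43523765, minus strand), measured 2940, 4573 and 7775 CPM in WT gastrocnemius, 8214, 6507 and 7894 CPM in HSA-LR and 6773, 4748 and 4372 CPM in treated mice. The quadriceps gave 4158, 3488 and 7334 CPM in WT, 5084, 5737 and 9999 CPM in HSA-LR and 8245, 6320 and 6639 CPM in treated mice. WT mouse 3 was the highest WT mouse in both muscles and overlapped HSA-LR, the reverse of its place for Mylk2. Tpm2 and Mylk2 had a correlation of log2 CPM of −0.707 over the 18 libraries, and Tpm2 and Mybpc1 of 0.882. The log2 fold changes from WT to HSA-LR were 0.55 (edgeR adjusted p = 0.316) and 0.48 (adjusted p = 0.384), and those from HSA-LR to treated were −0.50 (adjusted p = 0.385) and 0.03 (adjusted p = 0.965). Without WT mouse 3, 1 of the mice with the doubtful sex label, the gastrocnemius difference was 0.99 (edgeR adjusted p = 0.0447).

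Tpm3, the slow alpha tropomyosin (chr3:90072649-90100902, plus strand), measured 490.7, 831.4 and 943.4 CPM in WT gastrocnemius, 687, 348.1 and 537 CPM in HSA-LR and 2501, 485.4 and 413.2 CPM in treated mice. In quadriceps it measured 46.8, 44.8 and 108.1 CPM in WT, 44.8, 32.3 and 24.3 CPM in HSA-LR and 131.1, 293.1 and 31 CPM in treated mice. The pattern over mice was that of Myl2 and Myl3, with a smaller span of 103-fold against 700-fold and 757-fold. From HSA-LR to treated quadriceps it rose by 2.17 on the log2 scale (SE 0.691, edgeR adjusted p = 0.0916), and from WT to HSA-LR the value was −0.98 (adjusted p = 0.389). The call was lost without WT mouse 1 (edgeR adjusted p = 0.105), WT mouse 2 (0.108), HSA-LR mouse 1, 2 or 3 (0.18, 0.226 and 0.161) or treated mouse 1 or 2 (0.171 and 0.276, the latter at a log2 fold change of 1.27). The genome holds processed copies of Tpm3, and how the submitters counted reads that fit more than 1 place is not given in the sources used here.

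Between the muscles of WT mice, the slow members were the ones that stood apart. Tpm3 was lower in quadriceps by a log2 fold change of −3.50 (SE 0.777, edgeR adjusted p = 0.112), Myl2 by −3.56 (SE 1.06, adjusted p = 0.24) and Myl3 by −3.98 (SE 1.16, adjusted p = 0.22), and no quadriceps value reached a gastrocnemius value for any of them. The other 7 genes had log2 fold changes between −0.32 for Mybpc1 and 0.11 for Mylpf. The fit without pairing called 0 of the 10 genes (3 at an unadjusted p under 0.05) and 0.297% of all genes. With the mouse as a block, which pairs the muscles of the same group and number, all 3 slow genes fell in quadriceps, Tpm3 by 3.57 (edgeR adjusted p = 0.0303), Myl3 by 4.01 (adjusted p = 0.083) and Myl2 by 3.75 (adjusted p = 0.097). Without pairing they also passed when treated mouse 3 was left out of the shared fit (edgeR adjusted p = 0.0272 for Tpm3, 0.0887 for Myl2 and 0.072 for Myl3), and Tpm3 without treated mouse 1 (0.0562) or 2 (0.0708). Whether an HSA-LR or treatment difference was itself unequal in the muscles was tested as an interaction, which called 0 of the 10 genes and 0% of all genes for HSA-LR against WT, and 0 of the 10 and 0% for treated against HSA-LR, with 0 of the 10 at an unadjusted p under 0.05 in either (edgeR). DESeq2 was not run on the fits over both muscles. The smallest p values among the 10 were 0.16 and 0.0573, both for Myl2 (adjusted p = 1 and 0.636).

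Other genes of the same families and of the same filaments were read from lists. Of 12 related light chain, kinase, binding protein and tropomyosin genes tested, 2 were called between HSA-LR and WT gastrocnemius (1 higher, 1 lower) and 5 in quadriceps (2 higher, 3 lower), with list medians of −0.19 and 0.04. Of all genes tested, 15.5% and 20.3% were called in these comparisons. Treated against HSA-LR mice gave 0 and 2 calls (1 higher, 1 lower), against 10% and 13.8% of all genes. Treated against WT mice gave 0 and 1, against 1.04% and 1.41%. In quadriceps Mylk fell by 0.67 in HSA-LR (edgeR adjusted p = 0.00804) and rose by 0.52 after treatment (adjusted p = 0.0361). Myl4 rose there by 0.80 in HSA-LR (edgeR adjusted p = 0.00975) and stood 0.69 above WT in treated mice (adjusted p = 0.0929). Mybph, a myosin-binding protein H found with type C on the thick filament, measured 39.6, 37.2 and 278.4 CPM in WT gastrocnemius and 605.7, 429.4 and 819.2 CPM in HSA-LR, and rose by 2.38 (edgeR adjusted p = 0.0633), and in quadriceps by 1.21 (adjusted p = 0.0345). Myl9, a regulatory light chain of smooth muscle and nonmuscle myosin, fell by 0.60 and 0.76 (edgeR adjusted p = 0.0271 and 0.0196). Beside these, the smooth muscle list had 2 of 7 genes lower in HSA-LR gastrocnemius and 4 of 7 in quadriceps. The list medians were −0.16 and −0.48. Its genes summed to 4016 to 4249 CPM in WT and 4055 to 4356 CPM in HSA-LR gastrocnemius. In quadriceps the sums were 3600 to 3665 CPM in WT and 3492 to 4496 CPM in HSA-LR. The list includes Des, which is shared with skeletal muscle, so its sum does not measure smooth muscle alone. The part of smooth muscle in the Myl9 difference was not tested.

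Of 18 partner genes that bind or regulate these proteins, 6 were called between HSA-LR and WT gastrocnemius (4 higher, 2 lower) and 7 in quadriceps (5 higher, 2 lower). Of all genes, 15.5% and 20.3% were called in these comparisons, and 10% and 13.8% between treated and HSA-LR mice. Cfl2, the muscle cofilin that severs actin filaments, rose by 0.51 and 0.62 on the log2 scale (edgeR adjusted p = 0.03 and 0.00677), and Myom2, an M-band protein, by 0.41 and 0.57 (adjusted p = 0.0559 and 0.0228). Calm3, a calmodulin gene whose protein activates Mylk2, fell by 0.64 and 0.76 (edgeR adjusted p = 0.0462 and 0.0141). In treated against HSA-LR mice 4 and 3 of the 18 were called, with Calm3 up by 0.64 and 0.63 (edgeR adjusted p = 0.0668 and 0.0467) and Cfl2 down, at log2 fold changes of −0.42 and −0.44 (adjusted p = 0.081 and 0.0445). Of 10 fast fiber genes, 2 were called between HSA-LR and WT in gastrocnemius (Myh1 higher, Atp2a1 lower) and 5 in quadriceps, all lower, with medians of −0.30 and −0.36, and 5 (4 higher, 1 lower) and 3 (all higher) after treatment. Myl1 was closest over the 18 libraries to Cops8 (r = 0.97) and to Ckm (r = 0.966), the muscle creatine kinase, and Tpm1 to Mettl13 (0.945) and Tnnt3 (0.943), the fast troponin T. Near genes were Cib2 and Anapc5 for Mybpc2 (0.947 and 0.928), Got2 and Stau2 for Tpm2 (0.934 and 0.914), Got2 for Mybpc1 (0.876), Cpeb1 and Capza2 for Mylk2 (0.917 and 0.916) and Mrps21 and Cgrrf1 for Mylpf (0.851 and 0.842).

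The forms of these genes were read from exon bins, as the count ratio of competing exons, without division by length. For 12 annotated alternative exons, the share of the gene's counts did not overlap between HSA-LR and WT for 2 in gastrocnemius (both higher in HSA-LR) and 5 in quadriceps (4 higher, 1 lower), against 19.8% and 12.5% of all bins tested. Treated and HSA-LR mice were apart for 3 and 3, all lower after treatment, against 16.5% and 13.9%. As ratios to the competing exon, the measure given below, the counts were 2 and 7 (6 higher, 1 lower) for HSA-LR against WT and 3 and 4, all lower, for treated against HSA-LR. Treated and WT ratios were apart for 1 in each muscle, both lower in treated mice. No share over all bins was computed for such ratios. The Tpm3 ratios, all among the 6 higher in quadriceps, are set against exons with few counts in HSA-LR quadriceps. The lowest counts were 68 for exon 6b, 36 for the long-form second exon and 29 for the muscle last exon. A two-sided exact permutation test of 3 mice against 3 cannot give a p below 0.1, which every ratio without overlap reached.

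Myl1 has 2 starts, and its transcripts differ in the head of the protein. The long form begins with 47 codons over 2 exons (coding parts chr1:66944792-66944905 and chr1:66934246-66934273), and the short form with 9 codons from another pair of exons (chr1:66935276-66935278 and chr1:66934518-66934542), after which they share the rest. Both are on the minus strand of GRCm38 and come from GENCODE M21 transcripts Myl1-201 and Myl1-202, with the start codon in capitals, and are shown because the ratio of these exons is the measure below.
Myl1 long form: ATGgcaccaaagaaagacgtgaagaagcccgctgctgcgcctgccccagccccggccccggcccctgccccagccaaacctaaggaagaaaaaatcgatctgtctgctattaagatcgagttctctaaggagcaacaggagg
Myl1 short form: ATGtccttcagtgctgaccagattgccg

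The long-form first exon had 55.4%, 58.9% and 50.2% of the counts of the short-form first exon in WT gastrocnemius, 69%, 67% and 66.6% in HSA-LR and 51.7%, 48.7% and 49.7% in treated mice. In quadriceps the ratios were 51.5%, 52.4% and 44% in WT, 66%, 68.5% and 68.9% in HSA-LR and 54.4%, 57.8% and 47.4% in treated mice. HSA-LR lay above WT and treated mice in both muscles, 1.23-fold and 1.38-fold above WT, and treated mice at 0.741-fold and 0.782-fold of HSA-LR (exact permutation p = 0.1 for each). The groups lay apart in the level of the short-form first exon. It measured 576.5, 517.7 and 504.1 CPM in WT gastrocnemius, 362.3, 386.2 and 390.5 CPM in HSA-LR and 500.9, 644.6 and 717.7 CPM in treated mice, without overlap of HSA-LR with either, and in quadriceps 546.5 to 580.4 CPM in WT, 359.7 to 463.3 CPM in HSA-LR and 478.8 to 621.1 CPM in treated mice, again without overlap. The long-form first exon spanned only 246.3 to 356.5 CPM over all 18 libraries, and its WT and HSA-LR values overlapped in both muscles. The second exons gave the same order in quadriceps, 46.6% to 54.4% in WT, 63.2% to 64.8% in HSA-LR and 47.5% to 57.6% in treated mice, while in gastrocnemius HSA-LR mouse 2, at 57.9%, fell within the WT range of 50.1% to 58.1%. In the bin test, which sets a bin against the rest of its gene, the first exon of the long form had log2 relative changes of 0.14 and 0.31 (edgeR diffSpliceDGE, adjusted p = 1 for both) and was not called.

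Mybpc1 carries 2 cassette exons in the annotation. The 42-base exon (chr10:88582007-88582048, minus strand, GRCm38, transcript Mybpc1-202) keeps the reading frame, and the 59-base exon (chr10:88521277-88521335, Mybpc1-201) does not have a length divisible by 3. They are shown because HSA-LR and WT mice lay apart for the first and overlapped for the other, and capitals mark the motifs TGCT or TGCC, and their forms CGCT or CGCC, on the transcript strand, which do not overlap here.
Mybpc1 42-base exon: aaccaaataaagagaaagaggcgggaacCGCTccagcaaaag
Mybpc1 59-base exon: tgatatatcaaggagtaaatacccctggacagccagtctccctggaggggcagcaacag

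The 42-base exon holds 1 such motif, and 41.2% of 701 annotated coding-transcript exons of its length hold at least 1; the 59-base exon holds 0, and 51.9% of 966 exons of that length hold at least 1. The 42-base exon had 27.2%, 34.4% and 29.6% of the counts of its flanking exons in WT gastrocnemius, 40.3%, 39.1% and 40.5% in HSA-LR and 35%, 31.8% and 26.7% in treated mice. In quadriceps the ratios were 29.5%, 29.7% and 26.9% in WT, 38.2%, 38% and 39.1% in HSA-LR and 29.3%, 33.8% and 22.9% in treated mice. All HSA-LR mice lay above all others, 1.32-fold and 1.34-fold above WT on average, and the HSA-LR mice differed among themselves by less than WT or treated mice did. As a share of the gene the exon went from 1.05% ± 0.121 to 1.48% ± 0.0453 and 1.05% ± 0.236 in gastrocnemius and from 1.03% ± 0.12 to 1.5% ± 0.00525 and 1.09% ± 0.22 in quadriceps (WT, HSA-LR, treated; SD, n = 3). The bin test gave log2 relative changes of 0.49 and 0.57 for HSA-LR against WT, which were not called (edgeR diffSpliceDGE, adjusted p = 1 for both). The 59-base exon had 5.85% to 8.57% of its flanking counts in WT gastrocnemius against 3.47% to 6.17% in HSA-LR, and 10.2% to 13.1% against 1.38% to 10.4% in quadriceps, with overlap in both. Treated quadriceps had 10%, 9.09% and 9.34%, all below the WT values of 13.1%, 10.3% and 10.2% (0.85-fold, exact permutation p = 0.1). Without HSA-LR mouse 3, at 10.4% the highest of its group, the bin test called this exon lower in HSA-LR than in WT quadriceps, with a log2 relative change of −1.48 (edgeR diffSpliceDGE, adjusted p = 0.0077).

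Tpm1, Tpm2 and Tpm3 each have a mutually exclusive pair of 76-base internal exons, 6a and 6b, of which striated muscle uses mainly 6b. The pairs of Tpm2 (minus strand) and Tpm3 (plus strand) are shown, from GENCODE M21 transcripts on GRCm38, because the balance between them differed between groups or muscles; capitals mark the bases at which 6a and 6b of a gene differ. The Tpm2 exons lie at chr4:43519003-43519078 and chr4:43518644-43518719, and the Tpm3 exons at chr3:90088401-90088476 and chr3:90089048-90089123.
Tpm2 exon 6a: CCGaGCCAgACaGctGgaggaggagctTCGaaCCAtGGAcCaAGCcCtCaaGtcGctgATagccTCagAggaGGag
Tpm2 exon 6b: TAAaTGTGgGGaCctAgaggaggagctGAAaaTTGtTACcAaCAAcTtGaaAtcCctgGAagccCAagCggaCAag
Tpm3 exon 6a: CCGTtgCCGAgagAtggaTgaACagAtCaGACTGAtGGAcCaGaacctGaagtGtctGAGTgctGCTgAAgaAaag
Tpm3 exon 6b: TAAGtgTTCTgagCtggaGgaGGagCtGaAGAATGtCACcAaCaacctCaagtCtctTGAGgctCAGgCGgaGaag

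The 6a and 6b exons of 1 gene were less alike than the 6b exons of different genes. Identity between 6a and 6b was 56.6% in Tpm1, 53.9% in Tpm2 and 51.3% in Tpm3, while 6b exons shared 73.7% to 76.3% of bases between genes and 6a exons 61.8% to 65.8%. Tpm1 used 6b almost alone, with 6a at 0.822% ± 0.0745 of 6b counts in WT gastrocnemius and 0.775% ± 0.0463 in WT quadriceps (SD, n = 3), and HSA-LR and treated ranges overlapped WT. The other alternative exons of Tpm1 were as rare: exon 2a averaged 0.161% to 0.184% of 2b in the 6 combinations of group and muscle, the short-form first exon 0.0517% to 0.0717% of the long-form one and the distal last exon 1.24% to 2.64% of the muscle last exon, with HSA-LR and WT overlapping in each. For the last exons, treated gastrocnemius at 0.96%, 0.99% and 1.75% lay below WT at 2.99%, 2.68% and 2.24% (0.454-fold, exact permutation p = 0.1). Tpm2 had 6a at 1.06%, 0.86% and 0.75% of 6b in WT quadriceps, 0.69%, 0.63% and 0.65% in HSA-LR and 0.57%, 0.74% and 0.83% in treated mice. HSA-LR lay below WT without overlap in that muscle, at 0.748-fold (exact permutation p = 0.1), and the groups overlapped in gastrocnemius. In Tpm3 the 6b count came from the last 46 bases of the exon, which form a bin of their own, and the balance was unlike in the muscles. Tpm3 6a was at 3.55% ± 0.876 of 6b in WT gastrocnemius and at 88.2%, 53.2% and 21% in WT quadriceps, 88.7%, 170.3% and 130.9% in HSA-LR quadriceps and 15%, 6.82% and 77.8% in treated quadriceps. HSA-LR quadriceps lay above both other groups without overlap. As a share of the gene, 6a was at 2.61% to 3.44% in HSA-LR quadriceps and above every WT value, but overlapped treated mouse 3 at 2.62%.

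The Tpm3 ratios followed the level of its muscle form. The gene has a long form, whose start lies at the 5′ end of the gene and whose end is the muscle last exon, and a short form with a start further in, used outside muscle fibers. The 150 bases before each start are shown with CG pairs in capitals, from RefSeq positions on GRCm38.p6, because the counts downstream of them behaved so differently. The windows lie at chr3:90072501-90072650 and chr3:90079371-90079520 on the plus strand.
Tpm3 start of the long form: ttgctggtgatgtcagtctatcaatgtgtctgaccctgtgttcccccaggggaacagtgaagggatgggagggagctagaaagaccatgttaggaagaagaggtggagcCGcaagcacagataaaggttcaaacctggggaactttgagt
Tpm3 start of the short form: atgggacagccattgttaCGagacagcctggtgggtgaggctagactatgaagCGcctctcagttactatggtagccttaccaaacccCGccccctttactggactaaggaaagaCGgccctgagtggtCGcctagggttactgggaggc

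The window of the long form holds 1 CG and that of the short form 5, against a median of 4 over 32851 windows of the same length, of which 85.7% hold at least 1. CANNTG, a motif read alike on both strands, occurs 0 times in each, and 47.7% of all windows hold it. The second exon of the long form measured 34.4, 58.7 and 66.9 CPM in WT gastrocnemius and 1.17, 1.59 and 5.37 CPM in WT quadriceps, 0.863, 0.322 and 0.301 CPM in HSA-LR quadriceps and 8.1, 18.6 and 0.523 CPM in treated quadriceps. It spanned 583-fold over the 18 libraries, and the muscle last exon spanned 524-fold, from 0.242 to 127.1 CPM. The first exon of the short form stayed between 0.744 and 1.32 CPM, a 1.77-fold span, and the distal last exon between 6.96 and 12.8 CPM, a 1.85-fold span. The short over long ratio was 23% to 92.5% in WT quadriceps, 112.9% to 355.6% in HSA-LR, and 10.1%, 5.5% and 190.5% in treated quadriceps, and HSA-LR and WT did not overlap. The distal last exon had 289.5% to 1180% of the counts of the muscle last exon in WT quadriceps and 1187% to 3985% in HSA-LR, without overlap, but 69.7% to 1676% in treated quadriceps. As shares of the gene these ends overlapped: in quadriceps the short-form first exon held 1.14% to 2.31% in WT and 2.17% to 3.55% in HSA-LR, and the distal last exon 10.3% to 23.7% and 22.1% to 30%. The bin of the long-form second exon had a log2 relative change of −1.49 from WT to HSA-LR quadriceps and 2.05 from HSA-LR to treated, neither of them called (edgeR diffSpliceDGE, adjusted p = 1 for both). Without treated mouse 3 the bins of the short-form first exon and the distal last exon fell from HSA-LR to treated quadriceps, by 2.69 and 2.67 on the log2 scale relative to the gene (edgeR diffSpliceDGE, adjusted p = 0.083 and 0.0363).

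**Figure D3:**
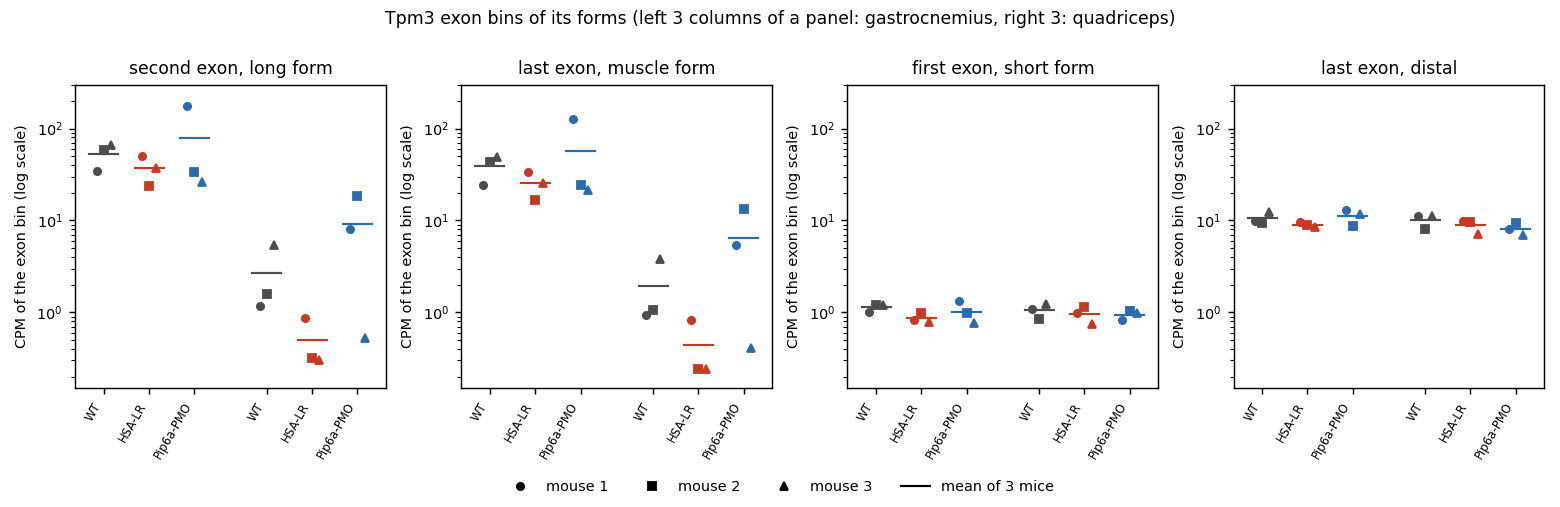
CPM (log axis) of 4 Tpm3 exon bins in 18 libraries, with 1 marker per mouse and a line at the mean of 3 mice; the left 3 columns of a panel are gastrocnemius and the right 3 quadriceps. The bins of the long form span 583-fold and 524-fold, and those of the short form and the distal end stay within 1.77-fold and 1.85-fold.

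The ends of the Tpm1 and Tpm2 transcripts gave 3 further ratios, which were chosen after their values were seen and are descriptions. The distal part of the Tpm2 last exon (chr4:43514862-43515681) had 68.9%, 73.1% and 60.1% of the counts of its proximal part in WT gastrocnemius, 53%, 47% and 52% in HSA-LR and 81%, 66.2% and 52% in treated mice. In quadriceps the values were 59.7%, 54.9% and 50.2% in WT, 41%, 36.2% and 40% in HSA-LR and 55.2%, 58.1% and 55.4% in treated mice. HSA-LR lay below WT in both muscles without overlap, while treated gastrocnemius mouse 3 fell within the HSA-LR range. A segment upstream of the main Tpm1 start (chr9:67049214-67049262) had 3.8%, 3.94% and 4.16% of the counts at the main start in WT gastrocnemius, 2.39%, 2.45% and 2.31% in HSA-LR and 3.34%, 4.24% and 3.96% in treated mice. In quadriceps it had 3.93%, 4.34% and 4.11% in WT, 2.9%, 2.99% and 2.47% in HSA-LR and 3.27%, 3.86% and 3.5% in treated mice, so HSA-LR lay below both other groups in each muscle. Treated quadriceps also lay below WT without overlap, at 0.858-fold. An intronic stretch of Tpm1 (chr9:67029920-67031028), annotated in a noncoding transcript, stood at 2.36% to 4.72% of the next exon in WT quadriceps, 1.07% to 1.63% in HSA-LR and 2.08% to 4.63% in treated mice, without overlap of HSA-LR with either. In gastrocnemius it stood at 4.9%, 4.03% and 2.51% in WT, 1.27%, 1.94% and 2.88% in HSA-LR and 3.43%, 3.74% and 4.73% in treated mice, so HSA-LR overlapped WT and lay below treated mice. The quadriceps bin had log2 relative changes of −1.25 and 1.24 in these comparisons (edgeR diffSpliceDGE, adjusted p = 0.111 and 0.165). The bin passed against WT without WT mouse 1 or 2 (adjusted p = 0.067 and 0.0191), and in treated against HSA-LR mice without WT mouse 2 or 3 or treated mouse 3 (0.021, 0.0821 and 0.0663). The part of 3′ and 5′ coverage in these ratios was not tested.

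**Figure D4:**
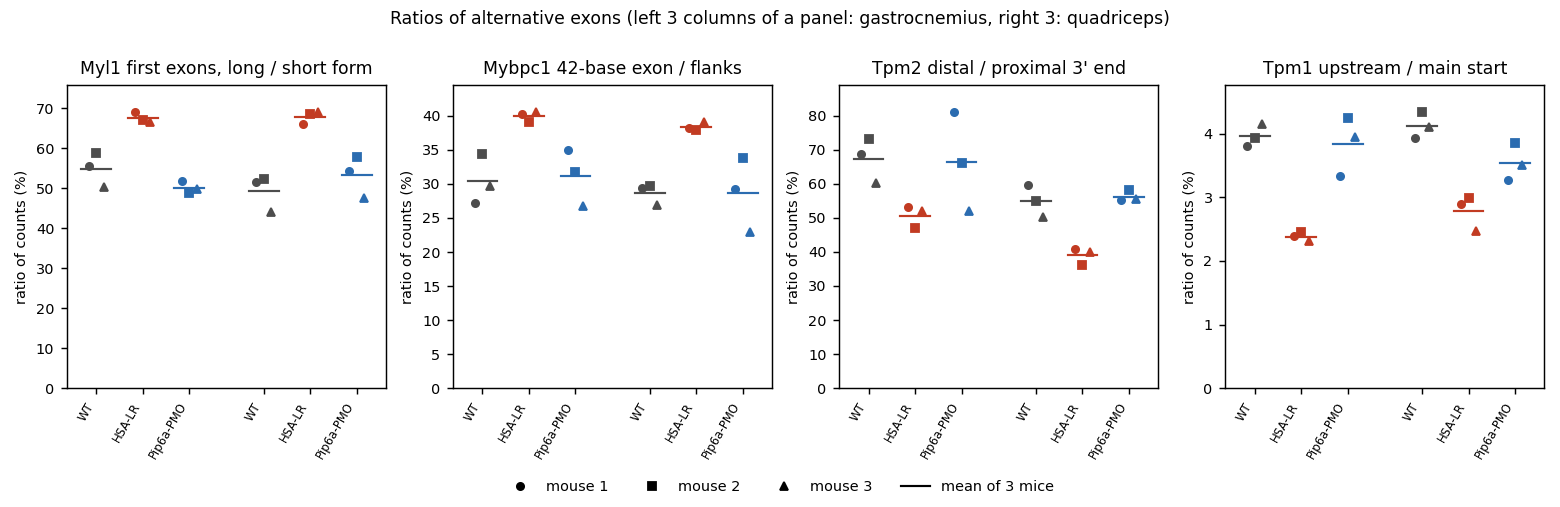
Count ratios of competing exons in percent (not divided by exon length), with 1 marker per mouse and a line at the mean of 3 mice; the left 3 columns of a panel are gastrocnemius and the right 3 quadriceps. In the Myl1 and Mybpc1 panels all HSA-LR mice lie above all WT mice of the same muscle, and in the panels of the Tpm2 3′ end and the Tpm1 start all lie below.

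Over all bins of the 10 genes, the shares of 78 of 266 bins (29.3%) did not overlap between HSA-LR and WT gastrocnemius, against 19.8% of all bins tested, and 50 of 247 (20.2%) in quadriceps, against 12.5%. Bins apart in both muscles in the same direction numbered 27 of 246, or 11%, against 3.44% of all bins. They lay in Tpm1 (11 of 44), Mybpc1 (6 of 37), Myl1 (5 of 21), Tpm2 (4 of 23) and Tpm3 (1 of 33), and 0 in the other 5 genes; bins of 1 gene share reads and are not independent. From HSA-LR to treated, 53 bins (19.9%) were apart in gastrocnemius against 16.5% of all bins, 47 (19%) in quadriceps against 13.9%, and 22 of 246 in both against 2.24%. Treated and WT mice were apart for 20 bins (7.52%) in gastrocnemius against 9.01% of all bins, and for 29 (11.7%) in quadriceps against 10.9%. Count depth was unlike in these comparisons: Tpm1 had at least 2108733 counts in every library, while all bins include those just past the minimum count of 10. Shares over bins of like count were not computed.

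The bin test called few of these. In HSA-LR against WT it called 3 of 266 bins in gastrocnemius, against 0.819% of all bins, and 2 of 247 in quadriceps, against 0.284% (edgeR diffSpliceDGE, adjusted p under 0.1). In treated against HSA-LR it called 2 bins in gastrocnemius, against 0.309%, and 0 in quadriceps, against 0.168%, where 15 of 247 had an unadjusted p under 0.05 and limma voom's diffSplice called 2. The shares of all bins at that unadjusted threshold or by limma voom are not given here, so these counts have no comparison. In treated against WT it called 0 in gastrocnemius, against 0.0654%, with 2 at an unadjusted p under 0.05 and 0 by limma voom, and 2 in quadriceps, against 0.0353%. The called bins are bin 012 of Myl1 and bins 020, 022 and 025 of Tpm1, all annotated only in noncoding transcripts of these genes.

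Bin 020 of Tpm1 (246 bases, chr9:67032220-67032465, transcript Tpm1-217), which adjoins exon 6a in the intron between 6a and 6b, held 0.00524%, 0.00679% and 0.00486% of the gene's counts in WT gastrocnemius, 0.0152%, 0.0125% and 0.0171% in HSA-LR and 0.00732%, 0.01% and 0.00363% in treated mice. In quadriceps it held 0.00469%, 0.0071% and 0.00438% in WT, 0.00986%, 0.0161% and 0.0155% in HSA-LR and 0.00767%, 0.00823% and 0.0097% in treated mice. Every HSA-LR share lay above every other share of the same muscle, from counts of 114 to 427 a library. The log2 relative change from WT to HSA-LR was 1.39 (edgeR diffSpliceDGE, adjusted p = 0.0628) in gastrocnemius and 1.31 (adjusted p = 0.0432) in quadriceps, and from HSA-LR to treated −1.20 (adjusted p = 0.393) and −0.66 (adjusted p = 1). The gastrocnemius call was lost without any WT or HSA-LR mouse, at adjusted p of 0.272, 0.13 and 0.399 when WT mice 1, 2 and 3 were dropped in turn, and of 0.273, 0.186 and 0.417 for the HSA-LR mice. The quadriceps call was lost without WT mouse 1 or 3 (0.411 and 0.252) or HSA-LR mouse 2 or 3 (0.306 and 0.343). With the mouse number as a block, the gastrocnemius change was 1.445 and was not called (edgeR diffSpliceDGE, adjusted p = 0.102).

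Bin 025 of Tpm1 (98 bases, chr9:67033778-67033875, transcript Tpm1-219) was called through single libraries. It held 0.379% of the gene's counts in WT gastrocnemius mouse 1, 0.323% in treated gastrocnemius mouse 3 and 0.407% in WT quadriceps mouse 2, and between 0.0102% and 0.0307% in the other 15 libraries. The log2 relative changes were −3.0 from WT to HSA-LR gastrocnemius (edgeR diffSpliceDGE, adjusted p = 1.94e-07), 3.0 from HSA-LR to treated (adjusted p = 3.75e-07), −3.47 from WT to HSA-LR quadriceps (adjusted p = 1.58e-14) and −3.57 from WT to treated quadriceps (adjusted p = 7.11e-14). Without WT mouse 1 the first was 0.35, without treated mouse 3 the second was −0.46, and without WT mouse 2 the others were −0.33 and −0.43 (adjusted p = 1 for each). Treated against WT gastrocnemius, not called with all mice, was 3.34 without WT mouse 1 (adjusted p = 3.08e-06) and −3.46 without treated mouse 3 (adjusted p = 5.85e-11). These libraries differ in group or mouse number, and the high share was not seen in the other muscle of the same group and number. The sum of 5 erythroid genes was 3867 CPM in the first of them, 3152 CPM in the second and 194.9 CPM in the third, against 79.4 to 1082 CPM in the other 15, and the part of blood RNA in this bin was not tested.

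Bin 022 of Tpm1 (252 bases, chr9:67032542-67032793, transcript Tpm1-217) held 0.00961%, 0.0309% and 0.00941% in WT quadriceps and 0.0746%, 0.0238% and 0.0716% in treated quadriceps, which overlap. Its log2 relative change was 1.76 (edgeR diffSpliceDGE, adjusted p = 0.00296), and the call was lost without WT mouse 1 (0.616), WT mouse 3 (0.124) or treated mouse 1 (0.227). The bin was also not called with the ratio of 5′ to 3′ coverage as a covariate, at a log2 relative change of 0.72. In HSA-LR against WT quadriceps it passed without WT mouse 2 (2.02, adjusted p = 1.59e-05) or HSA-LR mouse 1 or 3 (adjusted p = 0.0194 and 0.0349), and in treated against HSA-LR without HSA-LR mouse 2 (adjusted p = 0.00463). In gastrocnemius it ranged from 0.0178% to 0.127% with no call. Bin 012 of Myl1 (156 bases, chr1:66934543-66934698, transcript Myl1-208), which adjoins the second exon of the short form, held 0.198%, 0.143% and 0.119% in WT gastrocnemius, 0.227%, 0.337% and 0.253% in HSA-LR and 0.178%, 0.143% and 0.134% in treated mice. In quadriceps it held 0.135%, 0.209% and 0.122% in WT, 0.237%, 0.228% and 0.247% in HSA-LR and 0.165%, 0.174% and 0.154% in treated mice. HSA-LR lay above both other groups in each muscle without overlap. In gastrocnemius its log2 relative changes were 0.81 (edgeR diffSpliceDGE, adjusted p = 0.0972) and −0.88 (adjusted p = 0.0912), and in quadriceps 0.61 (adjusted p = 0.902) and −0.55 (adjusted p = 1). The first call was lost without WT mouse 2 or 3 (0.577 and 0.767), any HSA-LR mouse (0.152, 1 and 0.355) or treated mouse 2 (0.14), and the second without WT mouse 2 (0.193), any HSA-LR mouse (0.179, 1 and 0.355) or treated mouse 2 or 3 (0.336 and 0.183). Both were lost with the mouse number as a block (0.148 and 0.229) or at least 30 counts in 3 libraries (0.117 and 0.112). The second was also lost with the coverage ratio as a covariate (0.223).

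**Figure D5:**
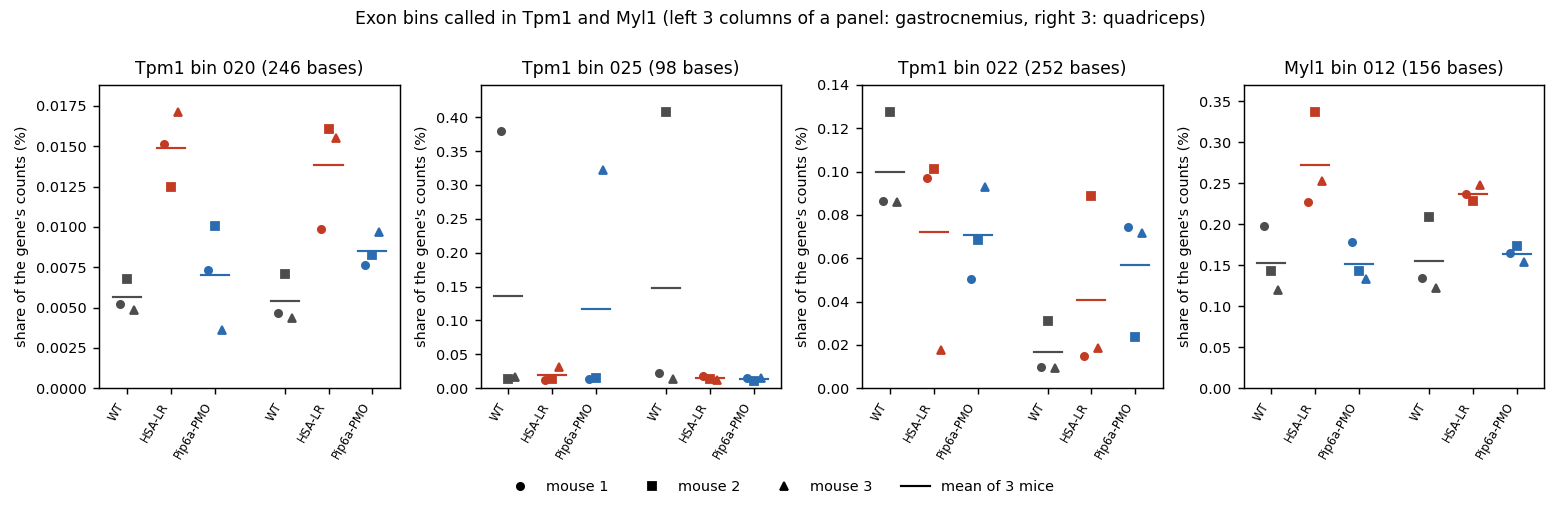
Share of the gene's counts (percent) held by the called bins of Tpm1 and Myl1, with 1 marker per mouse and a line at the mean of 3 mice; the left 3 columns of a panel are gastrocnemius and the right 3 quadriceps. Tpm1 bin 025 is high in 3 of 18 libraries, at 0.323% to 0.407%, while in the bin 020 and bin 012 panels all HSA-LR mice lie above the WT mice of their muscle.

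The remaining genes had no called bin with all mice. Bin 014 of Mylpf (chr7:127213896-127213934, a noncoding transcript) was called in gastrocnemius without HSA-LR mouse 3 (HSA-LR against WT −2.53 and treated against HSA-LR 1.58, edgeR diffSpliceDGE adjusted p = 1.39e-06 and 0.0211) and without treated mouse 1 (treated against HSA-LR −2.09 and against WT −2.24, adjusted p = 0.0256 and 0.0243). Bin 020 of Myl1 was called in treated against HSA-LR quadriceps without treated mouse 2 (−1.08, edgeR diffSpliceDGE adjusted p = 0.022). The smallest unadjusted p of HSA-LR against WT lay in bin 031 for Mybpc2 (0.673 and 0.753 in gastrocnemius and quadriceps, by edgeR diffSpliceDGE), bins 012 and 008 for Mylk2 (0.792 and 0.861), bins 002 and 003 for Mylpf (0.251 and 0.116), bins 021 and 027 for Myl2 (0.375 and 0.675) and bins 004 and 003 for Myl3 (0.518 and 0.927). For Mybpc1 it was the 59-base exon in gastrocnemius (0.111) and bin 016 in quadriceps (0.169), for Tpm2 the distal end of the last exon, bin 003, in gastrocnemius (0.395) and bin 010 in quadriceps (0.068), and for Tpm3 bin 019 (0.577) and the long-form second exon (0.0644). In Myl1 quadriceps it was bin 004, with a log2 relative change of 0.72 (edgeR diffSpliceDGE, adjusted p = 0.247). The adjusted p of each of these bins outside Myl1 was 1.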

How the data were processed

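Counts per exon bin were deposited for 18 libraries; per the labels, poly(A) RNA was made into TruSeq stranded libraries, and the authors' processing notes name CASAVA, HISAT, featureCounts 1.5.0 and GRCm38, with no handling of multimapping reads given in the sources used here. Rows with no gene held 2.82% to 4.14% of the counts and were left out. Bin counts were summed per gene and tested per muscle over 9 libraries with edgeR 4.0.16 (R 4.3.3; filterByExpr, minimum count 10, minimum total 15; TMM; quasi-likelihood test; Benjamini-Hochberg; called at an adjusted p under 0.1). Bins were tested against the rest of their gene with diffSpliceDGE, and muscles over all 18 libraries. The scripts were checked on simulated data. Correlations were of log2 CPM (prior count 2), over genes with a mean of at least 10 CPM. Alternatives were DESeq2 1.42.0, limma 3.58.1 (voom), other filters and scalings, a replicate block, a coverage covariate and leaving out each mouse. Symbols and exons came from GENCODE M21, whose flattened bins matched in number for 41124 of 41149 genes of the same version. All members were named, with their annotated alternative exons, their called bins (otherwise the bin of smallest p) and the 2 genes most like each, apart from some genes that are not reported here; the members and lists were chosen with earlier results of these data known. Muscles of the same group and number were taken as those of 1 mouse. Their deviations from the group means correlated at 0.136 to 0.723 over 9 mice (median 0.316). Same-numbered samples of different groups gave −0.367 to 0.39 (median 0.0123). These ranges overlap, so the correlations do not settle the pairing.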

Additional observations from a re-analysis of the deposited data

How the results depend on the processing

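Of 255 log2 fold changes of the 10 genes under alternatives that kept every mouse, 235 kept their direction and side of the threshold, and of 405 that left out 1 mouse, 348 did. Against 1 and 1 genes called in gastrocnemius and 1 and 2 in quadriceps (HSA-LR against WT, then treated against HSA-LR), DESeq2 called 2 in treated gastrocnemius, 3 in HSA-LR quadriceps and 4 in treated quadriceps. The shares of all genes or bins called under the alternatives are not given here. The counts in this paragraph therefore do not show whether an alternative calls more features in general. Each gene's largest bin gave 0 in treated gastrocnemius and 2 in HSA-LR quadriceps, and fits of 2 groups alone gave 0 in treated gastrocnemius and 0 in treated quadriceps. With the mouse number as a replicate block the calls were 0 in HSA-LR gastrocnemius, 0 in treated gastrocnemius and 0 in treated quadriceps, and 3 between WT muscles; across groups same-numbered mice share only a number (correlation of deviations −0.367 to 0.39, median 0.0123 over 18 pairs). Leaving out 1 mouse gave 0 to 2, 0 to 3, 0 to 3 and 0 to 3 genes in these comparisons, and 0 to 3 between WT muscles. Of bins, against 3, 2 and 0 called in gastrocnemius and 2, 0 and 2 in quadriceps (the third being treated against WT), the replicate block gave 1 and 0 in the first 2 comparisons of gastrocnemius. At least 30 counts in 3 libraries gave 1 in treated gastrocnemius. The coverage covariate gave 0 there, 1 in treated against WT gastrocnemius and 1 in quadriceps, and limma voom gave 1 in treated gastrocnemius and 6 and 2 in quadriceps (HSA-LR, then treated). Leaving out 1 mouse gave 1 to 3, 0 to 3 and 0 to 1 bins in gastrocnemius and 1 to 3, 0 to 3 and 1 to 2 in quadriceps. Directions turned for Mylpf in treated quadriceps with the largest bin (0.017) and for bin 025 of Tpm1 in treated gastrocnemius with the coverage covariate (−0.68). On leaving out 1 mouse, treated against HSA-LR quadriceps ran from −0.18 to 0.67 for Mybpc1, −0.045 to 0.33 for Mylk2, −0.11 to 0.11 for Mylpf and −0.15 to 0.40 for Tpm2. Treated against HSA-LR gastrocnemius ran from −0.063 to 1.43 for Myl2, −0.21 to 1.67 for Myl3, −0.22 to 1.51 for Tpm3 and −0.46 to 3.51 for bin 025 of Tpm1. HSA-LR against WT ran from −0.25 to 0.60 for Mybpc1 in quadriceps and −3.56 to 0.35 for bin 025 of Tpm1 in gastrocnemius. Where no alternative's construction shows it, the cause was not tested. With 3 mice a group, bins of low count and the slow genes in quadriceps, which vary most between mice, limit what these tests can show.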
